A study of Mus musculus with 24 samples.

Results

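The data described here follow the adipocyte differentiation (AD) of 3T3-L1 cells in which the sumoylation pathway was inhibited, from 2 days before adipogenic induction to 7 days after it. 3T3-L1 is a mouse line of embryonic fibroblasts, also called pre-adipocytes (PA), that chemical induction turns into mature adipocytes (MA), and ML-792 inhibits SAE1/2, the enzyme that activates SUMO. The libraries were chosen by their sample titles, which give a replicate letter, the treatment and the day. They comprise 3 libraries of cells in 0.5 µM ML-792 at day −2 and 3 at day 7, named A, B and C, and so 6 of the 24 libraries of the study. The matching 6 libraries of DMSO-treated cells at the same days served for comparison, and the remaining 12 libraries, of days 1 and 3, entered only the estimate of the spread. All cells were of 1 cell line. AD was induced with dexamethasone, 3-isobutyl-1-methylxanthine and insulin in fetal bovine serum, and from day 3 the cells were kept in a maintenance medium with insulin as the only inducer left. Before harvest, new RNA was labelled with 100 µM 4-thiouridine for 45 min. Day −2 cells were thus neither induced nor in the same medium as day 7 cells, so that days of culture, inducers, medium and differentiation cannot be told apart. How long the day −2 cells had been in ML-792 is not given in the sources used here.

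SUMO is a small protein that a cascade of an E1, an E2 and E3 enzymes attaches to lysines of other proteins, many of them transcription factors and chromatin proteins, and that SENP proteases remove. During AD the early factors C/EBPβ and C/EBPδ are known to switch on the nuclear receptor PPARγ and C/EBPα, which together drive the genes of fat storage. The cells lose the fibroblast programme of matrix, stress fibres and division as they fill with lipid. Adipocytes take up fatty acids and glucose, esterify them to triglycerides in a lipid droplet, release them by lipolysis and secrete hormones such as adiponectin and leptin.

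RNA was read in 2 ways from the same libraries. QuantSeq counts all 3′ ends of polyadenylated RNA (total reads), and SLAMseq counts, among them, the reads with at least 1 T to C conversion (labelled reads), which the study took as new RNA. A conversion can also come from a sequencing error or a base variant, and no unlabelled library was analysed here. The ML-792 libraries held 20801395 to 27013352 total reads at day −2 and 14434920 to 16853760 at day 7. They held 637187 to 724626 labelled reads at day −2 but only 115709 to 144906 at day 7, so that labelled reads of single genes carry a wide counting error. Replicates correlated at a Pearson's r of 0.983 to 0.987 at day −2 and 0.97 to 0.978 at day 7 in log2 total counts. In labelled counts r was 0.88 to 0.882 at day −2 and 0.728 to 0.757 at day 7. Values per library below are normalized counts in the order A, B, C, that is, raw counts brought to a common effective library size, the mean over the 24 libraries. Changes are log2 fold changes of day 7 over day −2 ± standard error (SE) from edgeR's quasi-likelihood fit, with Benjamini-Hochberg adjusted p over all entries tested. A gene is said to have risen or fallen at an adjusted p under 0.01, with 1 value per gene from its 3′UTR entry with the most reads. Levels of different genes are not compared with each other.

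Of 13331 genes tested in total reads, 2711 were higher at day 7 than at day −2 in ML-792 (20.3% of the genes tested) and 2745 were lower (20.6%), with a median log2 change of -0.02 over all genes. In DMSO 2812 genes rose (21.1%) and 2887 fell (21.7%). Of the genes that rose in ML-792, 2176 also rose in DMSO, which is 80.3% of the ML-792 calls and 77.4% of the DMSO calls. Of those that fell, 2277 also fell in DMSO, 83% of the ML-792 calls and 78.9% of the DMSO calls. Only 7 genes rose in ML-792 and fell in DMSO, and 7 did the opposite. The 2 changes had a Pearson's r of 0.876 and a Spearman's rho of 0.864 across genes, which are not independent replicates and share the fit. Before induction no gene differed between ML-792 and DMSO at an adjusted p under 0.1 (0% higher and 0% lower by edgeR, and 94 genes higher and 90 lower at an unadjusted p under 0.05). At day 7, 804 genes were higher in ML-792 (6.03%) and 744 lower (5.58%). Contrasts of the treatments at a single day were fitted only without the replicate letter as a block. The lack of calls before induction thus does not show that no gene differed then. The count of changed genes rested on replicates A and C: without replicate A, 1549 genes rose and 1575 fell, and without replicate C 1887 rose and 1855 fell. Counts of genes that rose or fell in a group below are to be read against 20.3% and 20.6%, and its median change against -0.02. Counts of members whose change differed between the treatments (adjusted p under 0.1) are to be read against 2.11% higher and 1.94% lower in ML-792. Where such counts are given with the replicate block, 655 genes higher and 831 lower of the 13331 are the measure. In 29.8% of the genes tested all 3 day 7 libraries lay above all 3 of day −2, and in 31.9% below.

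**Figure D1:**
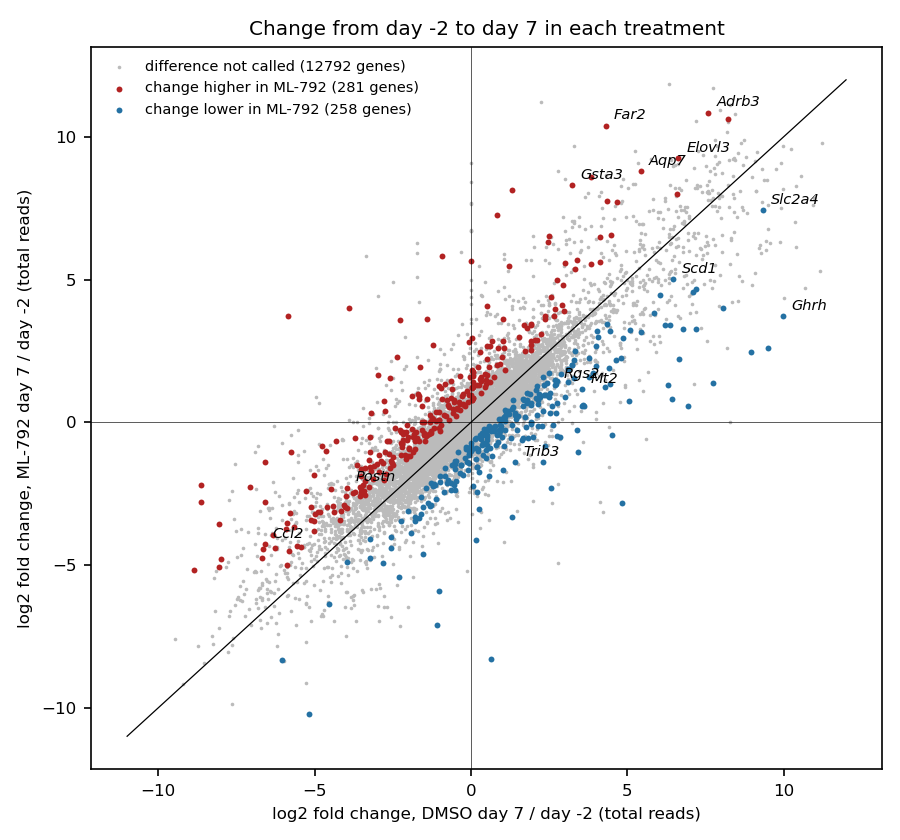
Log2 fold change of total reads from day −2 to day 7 in DMSO (x axis) and in ML-792 (y axis), 1 point per gene tested (13331 genes), with genes whose change differed between the treatments at an adjusted p under 0.1 in colour. Most genes lie along the diagonal, 281 coloured genes lie above it and 258 below it, and the positions of genes with no read in a group depend on the prior count.

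Cell identity was checked with marker genes. In ML-792 all 16 of 16 tested adipocyte markers rose, and none of the macrophage, endothelial or cartilage markers did. Of 8 macrophage markers only 4 had enough reads to be tested, none passed in either direction without the replicate letter as a block, and *Ptprc*, *Itgam* and *Tyrobp* had no read in the 6 libraries. With the block 1 passed, *Lyz2*, which encodes lysozyme and went from 17.8, 7.07 and 14.7 to 0 in every library (adjusted p = 0.0113, and 0.00476 with it, by edgeR). The summed level of the macrophage markers was 150.6 to 265.5 normalized counts at day −2 and 125 to 188.5 at day 7. Of 6 endothelial markers only *Pecam1* was tested, with a change of 0.10 ± 0.88, and the sum of all 6 lay between 3.35 and 10.7 at day −2 and between 5.15 and 9.53 at day 7. Of 7 skeletal muscle markers only *Des*, which encodes an intermediate filament protein, was tested, while *Myf5*, *Myh3* and *Actn2* had no read in the 6 libraries. *Des* rose from 37.4, 24.7 and 23.5 to 164, 88.8 and 117. Among bone markers, *Alpl*, which encodes alkaline phosphatase, rose from 0, 0.707 and 2.01 to 57.2, 39.9 and 28.7. *Runx2* and *Spp1* fell with log2 changes of -3.29 ± 0.23 and -4.18 ± 0.51, and the summed level of 7 bone markers went from between 2469 and 3567 to between 229 and 315.5. *Sox9*, a factor of the cartilage lineage that pre-adipocytes also express, fell with a log2 change of -2.61 ± 0.44. *Comp* did not pass, at an adjusted p of 0.0479 by edgeR, and 3 of 5 cartilage markers had too few reads to be tested, *Acan* with none. In bulk RNA, fewer cells of a type and less RNA per cell cannot be told apart, here and in all that follows.

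Of 19 tested transcription factors that drive AD, 11 rose in ML-792 and 2 fell, with a median change of 0.78. *Pparg*, the nuclear receptor required for fat cell formation (3′UTR at chr6:115490196-115490404, plus strand, mm10), stood at 534, 278 and 554 normalized counts at day −2 and at 12069, 6275 and 14259 at day 7. Replicate B was the lowest at both days, and the groups did not overlap. Its change was 4.58 ± 0.53 (adjusted p = 3.79e-07 by edgeR), against 3.73 ± 0.51 in DMSO. *Cebpa*, which encodes its partner C/EBPα, rose from 445, 226 and 392 to 8663, 4568 and 7347, a change of 4.28 ± 0.35. *Klf15*, a later factor of the same cascade, had 5 reads in the 3 day −2 libraries together and stood at 643, 623 and 641 at day 7. *Klf9*, which encodes another Krüppel-like factor, rose by 1.52 ± 0.22. No factor of this list differed in its change between the treatments. With the replicate letter as a block, 4 did, *Cebpd* and *Klf5* among them.

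*Cebpd* went from 2456, 2246 and 2255 to 2937, 3426 and 4429, a change of 0.63 ± 0.17 (adjusted p = 0.00329 by edgeR). *Cebpb* changed by 0.53 ± 0.25, which passed only with the replicate letter as a block (adjusted p = 0.0894, and 0.00195 with the block, by edgeR). *Klf5*, an early inducer, had a change of -0.05 ± 0.40 and did not pass. *Klf4*, another early inducer, was the factor of the list that fell most, from 922, 1196 and 792 to 163, 282 and 210.3.

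Factors known to oppose AD fell in 11 of 15 cases and rose in none, with a median change of -1.32 (-1.81 in DMSO). *Dlk1*, the pre-adipocyte factor Pref-1, fell from 68752, 46743 and 56126 to 1693, 1019 and 1736, a change of -5.27 ± 0.31. The change in DMSO was -4.16 ± 0.29. The difference between the 2 did not pass without the replicate block (adjusted p = 0.142, and 1.71e-04 with it, by edgeR). *Wnt6*, which encodes a Wnt ligand, went from 45.4, 43.1 and 55.6 to 0, 1.29 and 0, a single read at day 7. The Krüppel-like repressor *Klf10* fell from 1657, 1175 and 1358 to 809, 624 and 873, and *Klf3* went from 3689, 1578 and 2857 to 1295, 760.4 and 1202 without overlap, a change of -1.32 ± 0.49 that missed the threshold without the block (adjusted p = 0.0334, and 2.22e-08 with it, by edgeR). *Tcf7l1* had a change of -0.31 ± 0.23 and did not pass. Of the 15 factors, 2 had a higher change in ML-792 than in DMSO and 2 a lower one, *Ddit3*, described below, among the lower. With the replicate block 4 were higher, *Klf10* among them, and 4 were lower, *Dlk1*, *Tcf7l1* and *Ddit3* among them.

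The genes that define the adipocyte rose in 16 of 16 cases, with a median change of 8.41 (7.52 in DMSO). *Adipoq*, which encodes the hormone adiponectin (3′UTR at chr16:23157595-23157968, plus strand, mm10), went from 327, 195 and 294 to 206493, 154143 and 200483, a change of 9.43 ± 0.32 with an adjusted p of 1.03e-16 by edgeR. *Fabp4*, the fatty acid carrier aP2, went from 841, 879.5 and 878 to 222120.0, 280292 and 269565. *Cfd*, which encodes the secreted protease adipsin, rose by 9.77 ± 0.39 and *Retn*, which encodes resistin, by 8.61 ± 0.41. All day 7 libraries lay above all day −2 libraries for these genes, as they did in DMSO. There the change was 8.54 ± 0.31 for *Adipoq*, 7.18 ± 0.35 for *Fabp4* and 8.65 ± 0.37 for *Cfd*. With the replicate block, though not without it, the changes of *Adipoq*, *Fabp4* and *Cfd* differed between the treatments (adjusted p = 0.0947, 0.0286 and 0.0141, against 0.199, 0.222 and 0.184 without it, by edgeR). Without the block, the only marker of the 16 that differed was *Slc2a4*, whose change was lower in ML-792. With the block, 4 markers had a higher change in ML-792, *Adipoq*, *Fabp4* and *Cfd* among them, and *Slc2a4* again had a lower one.

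Leptin, the satiety hormone of fat, had no read in ML-792 before induction. *Lep* stood at 0, 0 and 0 at day −2 and at 523, 400.1 and 474 at day 7, at least 627-fold higher when 3 reads over the group are taken as the floor (adjusted p = 3.74e-12 by edgeR). In DMSO it reached 24.8, 21.9 and 52.5 at day 7. At that day the ML-792 libraries all lay above the DMSO libraries, by 3.81 ± 0.37 on the log2 scale (adjusted p = 4.04e-07 by edgeR). The test of the difference between the 2 time courses did not pass (adjusted p = 0.284 by edgeR), and *Lep* had 0 reads in ML-792 and 0, 0.894 and 0 normalized counts in DMSO at day −2.

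Of 17 tested adipokines and acute phase proteins 17 rose, with a median change of 6.94, or 6.14 with the 3 genes without day −2 reads at their bounds. *Hp*, which encodes haptoglobin, went from 80.2, 58.7 and 90.5 to 37664, 43988 and 36364. *Orm1*, which encodes an orosomucoid, had no read before induction and reached 181, 275 and 216, at least 299.6-fold higher, and its relative *Orm3* went from 26.7, 17.7 and 52.96 to 5018, 2401 and 4690.1. The *Orm* genes are close copies, so that reads can be assigned to the wrong member. The smallest change of the list was that of *Cp*, which encodes ceruloplasmin, at 1.31 ± 0.19.

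Genes of fatty acid uptake and activation rose in 8 of 11 cases and none fell. *Lpl*, the lipase that frees fatty acids from circulating lipoproteins, was read at high levels already before induction. It went from 21084, 24907 and 20855 to 298056, 372498 and 309384, a change of 3.87 ± 0.16 beside 3.95 ± 0.16 in DMSO. *Cd36*, a fatty acid transporter, went from 23.2, 24.7 and 29.5 to 11149, 17341 and 14674, and *Acsl1*, which activates fatty acids with coenzyme A, from 667, 607 and 663 to 105946, 111616 and 104954. *Acsl4* had a change of -0.30 ± 0.21 and did not pass.

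The enzymes of triglyceride synthesis rose in 12 of 12 cases, with a median change of 5.47. *Gpd1*, which makes the glycerol backbone, went from 98.0, 73.5 and 67.7 to 50029, 44235 and 45680.3 (9.20 ± 0.29). *Agpat2* and *Lpin1*, of the middle steps, rose by 4.99 ± 0.24 and 4.46 ± 0.26. *Dgat2*, of the last step, went from 73.9, 48.1 and 75.8 to 14510.3, 9824 and 12946. *Pck1*, the enzyme of glycerol synthesis from pyruvate, had 5 reads over the day −2 libraries and stood at 428, 221 and 295 at day 7 in ML-792. In DMSO it reached 932, 557 and 1005. The day 7 groups of the 2 treatments did not overlap, but the difference of the changes did not pass (adjusted p = 0.392 by edgeR).

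Of 14 tested proteins of the lipid droplet, 13 rose and 1 fell, with a median change of 3.28. *Cidec*, which drives droplet fusion, went from 159, 77.8 and 149.5 to 77451, 70886 and 74611, with a change of 9.17 ± 0.32 in ML-792 and 9.10 ± 0.32 in DMSO. *Plin1*, the main coat protein, went from 16.9, 15.6 and 19.4 to 9150.1, 5271 and 7646. *Plin3*, a coat protein found in many cell types, was the member that fell, from 4309, 3671 and 4483 to 2085, 1871 and 2398. *Cav1* and *Ptrf* (Cavin1), which form the caveolae of the cell surface, rose by 2.08 ± 0.18 and 1.61 ± 0.21. The differences of the changes between ML-792 and DMSO, 0.073 ± 0.33 for *Cidec* and 0.70 ± 0.42 for *Plin1*, did not pass (adjusted p = 0.973 and 0.562 by edgeR).

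The lipases and regulators of lipolysis rose in 11 of 12 cases, with a median change of 6.31. *Pnpla2*, which encodes the first lipase ATGL, went from 599, 346 and 532 to 54149, 34380.3 and 53132, and *Lipe*, which encodes hormone-sensitive lipase, from 344, 238 and 329.9 to 28878, 23162 and 25139. *Abhd5*, a coactivator of ATGL, rose by 3.17 ± 0.16. *Adrb3*, the β3 adrenergic receptor of fat cells, had 2 reads before induction and stood at 1149, 1154 and 1131 at day 7, a ratio of 2306-fold (95% interval 638 to 19051), from counting error only. In DMSO *Adrb3* reached 492, 465 and 274, below all ML-792 libraries, and its change was lower than in ML-792 (adjusted p of the difference = 0.0965 by edgeR). *Adrb1*, the β1 receptor, had a change of -0.63 ± 0.34 and did not pass.

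Enzymes that make fatty acids anew rose in 11 of 16 cases and fell in 1. *Fasn*, fatty acid synthase, went from 4082, 2707 and 3599.6 to 24916, 14387 and 16430.5, and *Acaca*, acetyl-CoA carboxylase, from 491, 369 and 483 to 1609.6, 896 and 1293. The desaturase *Scd1* rose from 1037, 1152 and 948 to 38187, 38123 and 24643, a change of 5.01 ± 0.26. In DMSO it went from 1154, 1517 and 945 to 105474, 130752 and 85982, so that the ML-792 libraries all lay below the DMSO libraries at day 7. The difference of the changes was -1.47 ± 0.31 (adjusted p = 0.00921 by edgeR). *Elovl6*, an elongase, fell in ML-792 from 1049, 1206 and 1032 to 278, 409 and 324, and fell further in DMSO, by -3.21 ± 0.28 (difference 1.51 ± 0.37, adjusted p = 0.0286 by edgeR). *Fasn* rose by 2.42 ± 0.26 in ML-792 and by 3.21 ± 0.27 in DMSO, a difference that passed with the replicate block only (adjusted p = 0.353, and 0.0155 with it, by edgeR).

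Of 13 genes of insulin response and glucose transport, 8 rose and 1 fell. *Slc2a4*, the insulin-regulated glucose transporter GLUT4, went from 9.80, 2.83 and 7.37 to 1331, 1010.0 and 1074. In DMSO it reached 3211, 3249 and 2790.3, above all ML-792 libraries, and the difference of the changes was -1.92 ± 0.54 (adjusted p = 0.069 by edgeR). *Slc2a1*, the basal transporter GLUT1, fell from 2281, 2485 and 2285 to 1059, 944 and 951 in ML-792 (-1.25 ± 0.15) while its change in DMSO was -0.20 ± 0.14. That difference passed too, at -1.05 ± 0.20 (adjusted p = 0.00414 by edgeR). *Pik3r1*, a regulatory subunit of the kinase PI3K, rose by 2.20 ± 0.19.

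Of 29 nuclear-encoded subunits of the respiratory chain and ATP synthase 29 rose in ML-792 (28 in DMSO), with changes from 1.19 ± 0.16 for *Ndufa2* to 2.69 ± 0.32 for *Uqcrfs1* and a median of 1.77. *Atp5b*, the β subunit of ATP synthase, went from 5576, 8830.1 and 6523 to 30359.8, 38548 and 27132, and *Cox6a1*, of cytochrome oxidase, from 6477, 5457 and 8125 to 29993, 17272 and 30158. None of the 29 differed in its change between the treatments, with or without the replicate block. Of 17 enzymes of fatty acid oxidation 16 rose, with a median of 2.37. *Acadm*, the medium-chain dehydrogenase, rose most, from 353, 232 and 316 to 5856, 5406 and 5447. *Cpt1a*, which encodes the gatekeeper of fatty acid entry, was the exception and fell with a log2 change of -1.36 ± 0.15 (-2.88 ± 0.16 in DMSO, difference 1.52 ± 0.21, adjusted p = 1.13e-04 by edgeR). *Acaa2*, a thiolase, rose more in ML-792 than in DMSO (2.98 ± 0.20 and 1.54 ± 0.19, adjusted p of the difference = 0.00214 by edgeR). Of 17 enzymes that break down branched-chain amino acids 17 rose, led by *Bcat2*, which starts the pathway, from 295, 232 and 335 to 7703, 5418 and 7837.

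Of the genes of heat-producing fat, 8 of 11 had enough reads to be tested and 6 rose. *Ucp1*, which encodes the uncoupling protein that defines brown fat, had 0 reads at day −2 and 5 reads at day 7 in the ML-792 libraries together and was not tested. *Elovl3*, an elongase of brown and cold-exposed fat, went from 2.67, 6.36 and 4.02 to 3463, 2789 and 2105 in ML-792 and reached 587, 571 and 674 in DMSO. *Ppargc1a*, which encodes the coactivator PGC-1α, did not pass in ML-792 (617, 669 and 481 at day −2 and 456, 649.8 and 388 at day 7, a change of -0.24 ± 0.24) and fell in DMSO by -1.87 ± 0.25. Its relative *Ppargc1b* rose by 4.41 ± 0.16. The changes of 3 genes were higher in ML-792 than in DMSO, those of *Elovl3* (2.62 ± 0.77), *Ppargc1a* (1.63 ± 0.35) and *Dio2*, the deiodinase that activates thyroid hormone, which stood at 2.38, 25.7 and 17.8 in ML-792 and 0, 0 and 2.28 in DMSO at day 7. Their adjusted p were 0.0833, 0.01 and 0.0798 by edgeR. *Dio2* is named here, as are the members of other counts of 5 or fewer below, after its values were seen.

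**Figure D2:**
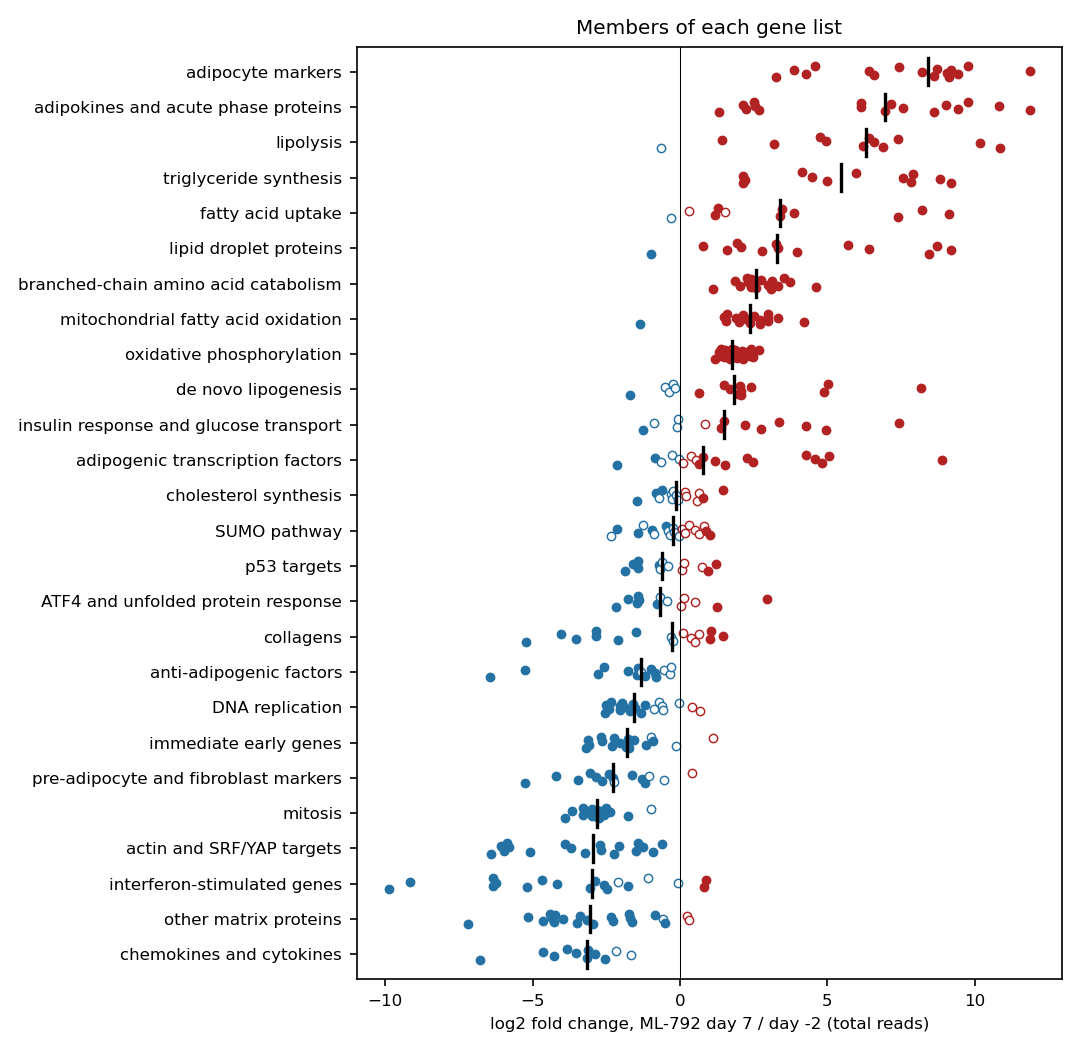
Log2 fold change of total reads from day −2 to day 7 in ML-792 (x axis) of each tested member of 26 gene lists (1 row per list, a bar at the median), filled where the member rose (red) or fell (blue) at an adjusted p under 0.01 and open where it did not pass. The medians of adipocyte markers, adipokines, lipolysis and triglyceride synthesis lie furthest to the right, from 5.47 to 8.41, and those of chemokines, other matrix proteins, interferon-stimulated and actin genes furthest to the left, from -3.16 to -2.96.

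The genes of total reads with the highest fitted changes, chosen by rank among genes whose groups did not overlap, were *Lep*, *Sfrp5*, *Cyp4a10*, *Pygl*, *Adrb3*, *Orm1*, *Ffar2*, *Tshr*, *Krt36* and *Far2*. All had between 0 and 8 reads over the 3 day −2 libraries. *Sfrp5*, a secreted Wnt inhibitor of adipocytes, had no read at day −2 and reached 446, 382 and 434, at least 565-fold higher. *Pygl*, glycogen phosphorylase, was at least 378-fold higher and *Krt36*, a keratin, at least 249.8-fold. *Cyp4a10*, an ω-hydroxylase of fatty acids and known target of PPARα, went from 0 to 472, 165 and 255, at least 406-fold. In DMSO *Cyp4a10* stood at 0, 2.09 and 3.43 at day 7. The receptors *Ffar2*, for short-chain fatty acids, and *Tshr*, for thyrotropin, went from 1.78, 3.54 and 0.670 to 3701, 3589.7 and 2826 for *Ffar2* and from 0, 0 and 0.670 to 511, 710.2 and 462 for *Tshr*. The day 7 libraries of these genes lie near each other, while the day −2 level is set by a handful of reads. *Far2*, which reduces fatty acids to alcohols, is described with the differences between the treatments.

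The fibroblast programme fell. Of 15 tested markers of pre-adipocytes and fibroblasts, 11 fell and none rose, with a median change of -2.29 (-3.09 in DMSO). *Thy1*, a surface antigen of stromal cells, went from 5738, 6356 and 6359 to 737, 616 and 869 and *Gas1*, a protein of growth arrest, from 34324, 26789 and 29379 to 4339, 4019 and 5985. *Vim*, the intermediate filament protein vimentin, fell with a log2 change of -1.27 ± 0.18. *Cd34* had few reads (12.5, 10.6 and 8.72 at day −2 and 0, 5.15 and 1.37 at day 7) and did not pass, at -2.24 ± 0.99. *Cd24a* changed by 0.40 ± 0.35 and did not pass. The fall was smaller in ML-792 than in DMSO for 4 of these markers, *Pdgfra* (-1.61 ± 0.14 and -2.59 ± 0.14), *Cd44* (-2.41 ± 0.14 and -3.43 ± 0.15), *Ly6a* (-1.18 ± 0.17 and -2.02 ± 0.17) and *Postn* (-2.29 ± 0.19 and -3.95 ± 0.21).

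Of 22 tested matrix proteins other than collagens 19 fell, with a median of -3.04. *Fn1*, fibronectin, went from 30481, 40956 and 30242 to 1791, 2041 and 1466, and *Timp3*, an inhibitor of matrix proteases, from 3128, 3655 and 3335 to 25.0, 24.4 and 19.1, the largest fall of the list at -7.19 ± 0.25. *Sparc*, a matrix glycoprotein that adipocytes also secrete, fell least of those that passed, by -0.50 ± 0.15. *Nid1*, of the basement membrane, changed by 0.30 ± 0.21 and did not pass. Of 16 collagen genes, 7 fell and 3 rose. The fibrillar collagen genes *Col1a1*, *Col1a2* and *Col3a1* fell, *Col1a1* from 167652, 108098 and 147736 to 20563, 17002 and 21899. *Col15a1*, of the basement membrane zone of fat cells, rose from 398, 486 and 443 to 1209, 1169.6 and 1231, while *Col8a1* fell with a log2 change of -5.24 ± 0.54.

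All 18 tested genes of the actin cytoskeleton and targets of the factors SRF and YAP fell, with a median of -2.96 and with no overlap of the groups. *Acta2*, smooth muscle actin of stress fibres, went from 55038, 34621 and 57399.6 to 774, 609 and 809 (-6.07 ± 0.39, adjusted p = 1.45e-11 by edgeR). *Tagln*, transgelin, went from 392, 243 and 439 to 2.38, 10.3 and 19.1, and *Ctgf* (Ccn2), a secreted target of YAP, from 3427, 1633 and 2440.4 to 39.3, 20.6 and 27.3. *Actb*, β-actin, fell with a log2 change of -1.27 ± 0.21 and *Vcl*, vinculin of focal adhesions, with a change of -0.60 ± 0.16. *Myl9*, the light chain of non-muscle myosin, fell with a log2 change of -5.96 ± 0.34. None of the 18 differed in its change between the treatments, and 4 did with the replicate block, *Actb* and *Vcl* among them.

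SRF binds a sequence known as the CArG box. It was searched for on both strands in RefSeq promoters (GRCm38.p6) from 250 bases before to 50 bases after each start site, 27025 windows of 300 bases. Promoters of 15 of the 19 actin and SRF/YAP genes matched, and 5 of them held a CArG box (33.3%), against 1.57% of all promoters. Of the 13 matched promoters of immediate early genes, 1 held it (7.69%). The windows of 26 bases around the box, with the box in capitals, are shown for the 5 genes that held the box, so that the letters can be read beside the values: *Cnn2* at chr10:79988536-79988561 on the plus strand, *Myl9* at chr2:156775295-156775320 on the plus strand, *Vcl* at chr14:20929163-20929188 on the plus strand, *Srf* at chr17:46556227-46556252 on the minus strand and *Actg1* at chr11:120348568-120348593 on the minus strand.
Cnn2: cttccacgCCTTATAAGGacatttgc
Myl9: agcagaggCCTAATAAGGccgggctg
Vcl: cactatgcCCTTATAAGGagcgcccc
Srf: ggggctcgCCATATAAGGagcggcct
Actg1: aaagatcgCCATATATGGacatgttc
*Srf* held another box downstream, whose window is not printed. The changes of these 5 genes were -3.90 ± 0.19 for *Cnn2*, a calponin, -5.96 ± 0.34 for *Myl9*, -0.60 ± 0.16 for *Vcl*, -1.51 ± 0.24 for *Srf* itself and -2.23 ± 0.43 for *Actg1*, γ-actin. A match describes the letters only.

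Immediate early genes, whose short-lived transcripts follow serum and stress signals, fell in 15 of 18 cases and rose in none. *Fos* went from 3331, 4155 and 3427 to 244, 404 and 620.1 and *Egr1* from 26145, 21945 and 17486 to 2563, 3924 and 3786. *Junb* and *Egr3* also fell, by -1.83 ± 0.18 and -3.20 ± 0.25, but by less than in DMSO (-2.72 ± 0.18 and -5.00 ± 0.28). The adjusted p of these 2 differences were 0.0596 and 0.00304 by edgeR. Of the 18 genes, 3 had a higher change in ML-792 than in DMSO and 2 had a lower one. *Myc* went from 297, 208 and 367 to 577, 475 and 830.4, and its change of 1.11 ± 0.45 did not pass although the groups did not overlap.

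Genes of cell division fell. Of 18 tested mitosis genes 17 fell and none rose, with a median of -2.82, and of 20 genes of DNA replication 13 fell and none rose, with a median of -1.56. *Top2a*, topoisomerase of dividing cells, went from 1298, 1295 and 1600.3 to 153, 184 and 295, *Plk1*, a mitotic kinase, from 1239, 588 and 1303 to 179.9, 81.1 and 205, and *Mki67*, the Ki-67 antigen, from 91.8, 72.8 and 92.5 to 0, 11.6 and 5.46. *Cdk1* went from 1409, 691 and 1525 to 726, 329 and 789. Its groups overlap between replicate B of day −2 and the day 7 libraries, and it passed with the replicate block only (adjusted p = 0.0496, and 2.69e-06 with it, by edgeR). Of the replication genes, *Pola1*, the catalytic polymerase subunit, fell most (-2.53 ± 0.37) and *Mcm2* by -1.95 ± 0.40, while *Ccne2*, cyclin E2, had a change of 0.67 ± 0.41 and did not pass. No mitosis or replication gene differed in its change between the treatments. With the replicate block 3 mitosis genes and 1 replication gene did, all lower in ML-792, *Top2a* among them.

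Promoters of mitosis genes are known to carry the CHR element, TTTGAA, and CCAAT boxes. In the windows above, searched on both strands, TTTGAA lay in 11 of 14 matched mitosis promoters (78.6%) and in 2 of 17 replication promoters (11.8%), against 18.1% of all promoters and 11.7% of those of genes tested here. CCAAT lay in 14 of 14 mitosis promoters (100%), against 37.9% of all. The element is shown in capitals for 4 genes of the list, chosen for holding it: *Ccnb2* at chr9:70421535-70421560 on the minus strand, *Mki67* at chr7:135716462-135716487 on the minus strand, *Prc1* at chr7:80294436-80294461 on the plus strand and *Cdk1* at chr10:69352912-69352937 on the minus strand.
Ccnb2: cggcgcggtaTTTGAAtcgcggaccg
Mki67: gccgttttggTTTGAAtcgggcgggc
Prc1: tctggctcggTTTGAAttccgcgggg
Cdk1: ccgcggcgagTTTGAAactgctggca
Their changes were -3.06 ± 0.28 for *Ccnb2*, cyclin B2, -3.91 ± 0.81 for *Mki67*, -2.97 ± 0.41 for *Prc1*, a factor of the central spindle, and -0.97 ± 0.39 for *Cdk1*.

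Genes known to be induced by interferon fell in 13 of 18 cases, with a median of -2.98 (-3.54 in DMSO). *Oasl2*, an antiviral protein, went from 655, 320.3 and 579.9 to 0, 1.29 and 0, with 1 read left at day 7 and a ratio of 1197-fold (95% interval 215 to 47302) from counting error only. *Mx1*, an antiviral GTPase, went from 99.8, 58.0 and 54.3 to 0 in every library, at least 53.4-fold lower. *Irf9*, a subunit of the interferon-activated factor, fell with a log2 change of -2.89 ± 0.23. Of the 2 members that rose, *Ifi27* did so by 0.80 ± 0.17. The element bound by that factor, searched as GAAA, any 2 bases and GAAA on both strands, lay in 10 of 15 matched promoters (66.7%), against 3.49% of all. It is shown for *Ifit1* at chr19:34640777-34640802 on the plus strand, where it runs on the opposite strand, and for *Isg15* at chr4:156200879-156200904 on the minus strand.
Ifit1: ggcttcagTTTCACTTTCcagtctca
Isg15: tgccgtagGAAAAGGAAAccgaaaca
*Ifit1* fell with a log2 change of -6.25 ± 0.48 and *Isg15*, a ubiquitin-like protein, with a change of -4.16 ± 0.35. The repeat of AGGTCA after 1 base of any kind, bound by PPARγ with its partner RXR, was in none of 14 promoters of fatty acid oxidation, 14 of lipid droplet and 12 of adipocyte marker genes, and in 0.0444% of all promoters, which says only that these letters are not in these windows.

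Chemokines and cytokines of fibroblasts fell in 9 of 11 cases, and 4 of them fell less in ML-792 than in DMSO. *Ccl2*, which attracts monocytes, went from 2577, 2921 and 3039 to 131, 143 and 172 in ML-792. In DMSO it went from 3212, 4974 and 2516 to 30.5, 49.0 and 29.7, so that the day 7 libraries in ML-792 all lay above those in DMSO. The changes were -4.26 ± 0.34 and -6.60 ± 0.39, a difference of 2.34 ± 0.46 (adjusted p = 0.00478 by edgeR). *Ccl7*, its neighbour and relative, was also higher, with 176, 217 and 329 at day 7 in ML-792 and 75.6, 41.7 and 65.1 in DMSO (difference 2.35 ± 0.34, adjusted p = 2.09e-04 by edgeR). *Cxcl12* and *Csf1* had differences of 0.86 ± 0.26 and 1.05 ± 0.31. *Cxcl5* fell most, from 1352, 1000.5 and 1649 to 19.1, 2.57 and 13.7. *Tslp* did not pass, at -1.67 ± 0.88.

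The genes with the lowest fitted changes of total reads, chosen by rank, were *Itga11*, *Oasl2*, *Rerg*, *Mx1*, *Bnc1*, *Fgl2*, *Ces1a*, *Mlana*, *Crabp1* and *C1qtnf3*. At day 7 all but *Oasl2* and *Ces1a* were at 0 reads in the 3 ML-792 libraries. *Itga11*, a collagen receptor of fibroblasts, went from 156, 136 and 154 to 0, at least 116-fold lower, and *Rerg*, a small GTPase, was at least 59.1-fold lower. *Bnc1*, *Fgl2*, *Crabp1* and *C1qtnf3* were at least 33.6-, 32.1-, 25.7- and 21.8-fold lower. *Ces1a*, a carboxylesterase, went from 574, 697 and 515 to 1.19, 1.29 and 2.73.

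Of 20 tested members of the SUMO pathway 2 rose and 4 fell, with a median of -0.22, and none differed in its change between the treatments (2 with the replicate block, both lower in ML-792). *Sae1*, a subunit of the enzyme that ML-792 inhibits, went from 3078, 2593 and 2695 to 1784, 1219.7 and 1304 (-0.96 ± 0.20). Its partner *Uba2* (SAE2) went from 779, 627 and 841 to 855, 710.2 and 955, a change of 0.17 ± 0.21 that did not pass. *Sumo3* had a change of 0.30 ± 0.28 and did not pass, and *Sumo2* had few reads, 7.13, 9.19 and 10.7 at day −2 and 2.38, 2.57 and 0 at day 7 (adjusted p = 0.0521 by edgeR). The protease *Senp1* had a log2 change of -0.87 ± 0.32 and passed with the block only (adjusted p = 0.0328, and 1.35e-06 with it, by edgeR). Of 15 genes of cholesterol synthesis 2 rose and 3 fell (4 and 4 with the block). *Cyp51*, which demethylates lanosterol, rose by 1.47 ± 0.18.

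Of 13 genes of the ATF4 and unfolded protein response 2 rose and 6 fell in ML-792, while in DMSO 6 rose and none fell. The changes of 3 were lower in ML-792 than in DMSO, and of 6 with the replicate block. *Ddit3*, which encodes the stress factor CHOP, went from 4306, 3796 and 4825 to 1431, 1095 and 1272 in ML-792 (-1.77 ± 0.17) and from 4479, 3913 and 4785 to 2903, 3393 and 3938 in DMSO (-0.36 ± 0.16). The difference was -1.40 ± 0.23 (adjusted p = 7.36e-04 by edgeR). *Trib3*, a pseudokinase induced by CHOP, and *Herpud1*, of protein degradation at the endoplasmic reticulum, also had lower changes in ML-792, by -2.80 ± 0.28 and -1.28 ± 0.21. *Xbp1*, a factor of secretory capacity, rose in both, by 2.97 ± 0.24 and 2.34 ± 0.24. *Hspa5*, the chaperone BiP, changed by 0.51 ± 0.19 and passed with the block only (adjusted p = 0.0294, and 9.97e-04 with it, by edgeR). Of 13 p53 targets 2 rose and 5 fell, of which *Sesn1*, a sestrin, rose by 1.22 ± 0.24 and *Zmat3*, an RNA-binding protein, fell with a log2 change of -1.86 ± 0.13. *Cdkn1a*, which encodes the cell cycle inhibitor p21, went from 13286, 9187 and 11906 to 22862, 13970.3 and 21056 and passed with the block only (adjusted p = 0.0387, and 7.05e-06 with it, by edgeR).

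**Figure D3:**
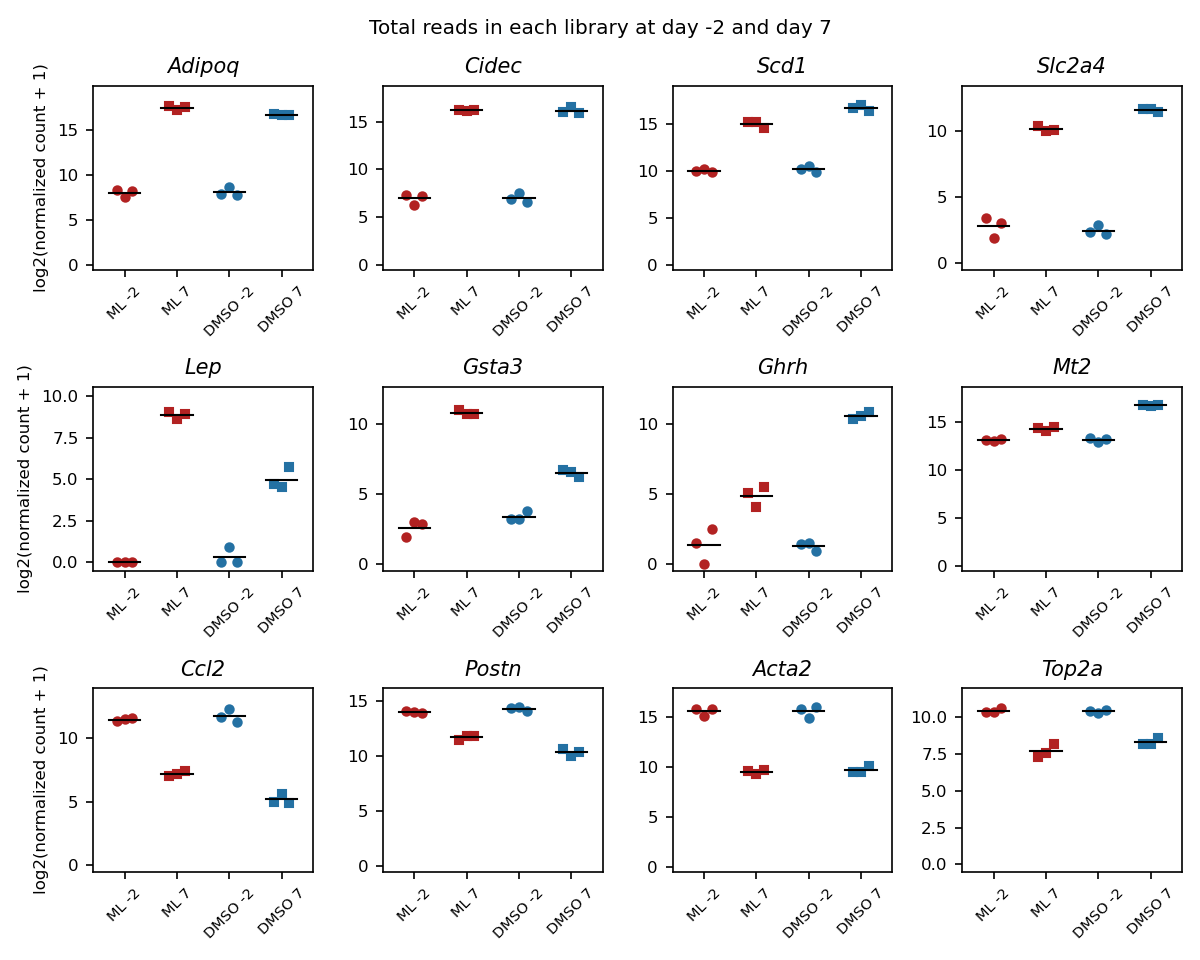
Log2 of normalized total counts plus 1 (y axis) of 12 genes in ML-792 (ML, red) and DMSO (blue) at days −2 and 7, 1 point per library (n = 3 per group) with a line at the group mean of the log2 values. *Adipoq* and *Cidec* rise in both treatments, *Scd1*, *Slc2a4*, *Ghrh* and *Mt2* are lower and *Lep*, *Gsta3*, *Ccl2* and *Postn* higher in all ML-792 libraries at day 7, and *Acta2* and *Top2a* fall in both.

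Where the 2 treatments differed, the change of 281 genes was higher in ML-792 (2.11% of the genes tested) and that of 258 was lower (1.94%) at an adjusted p under 0.1. With the replicate letter as a block the counts were 655 and 831. They rested on the replicates too: without replicate A they were 34 and 34, without replicate C 70 and 41, and without replicate B 400 and 329. Of the 281 genes with a higher change, 89 fell in both treatments and fell less in ML-792, 63 fell in DMSO alone by the threshold, and 50 rose in both and rose more in ML-792. A further 62 rose past the threshold in ML-792 but not in DMSO, and 7 rose in ML-792 and fell in DMSO. Of the 258 with a lower change, 81 rose past the threshold in DMSO but not in ML-792, 65 rose in both and rose less in ML-792, 51 fell past it in ML-792 but not in DMSO and 40 fell in both. The rest passed in neither or in opposite directions. The largest class of higher changes was thus that of genes that fell less in ML-792, and the largest of lower changes that of genes that rose in DMSO alone by the threshold.

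The genes whose change was highest relative to DMSO, by rank, were *Lipg*, *Fbp2*, *Rdh9*, *Far2*, *Plxnb1*, *Otop1*, *Rgag4* and *Gsta3*. *Gsta3*, a glutathione transferase (3′UTR at chr1:21264963-21265575, plus strand, mm10), went from 2.67, 7.07 and 6.03 to 2008, 1638 and 1647 in ML-792. In DMSO it went from 8.18, 8.05 and 12.4 to 103, 93.9 and 74.2. It thus rose in both treatments, and its change was higher in ML-792 by 5.09 ± 0.52 (adjusted p = 1.64e-06 by edgeR). *Far2* went from 0.891, 0.707 and 0 to 1169, 688 and 650.1 in ML-792 and from 2.45, 1.79 and 3.55 to 62.1, 41.7 and 58.2 in DMSO (adjusted p of the difference = 3.90e-04 by edgeR). *Rdh9*, a retinol dehydrogenase family member, had no read at day −2 in ML-792 and stood at 45.3, 24.4 and 35.5 at day 7. In DMSO it had 16 reads over the 3 libraries at day −2 and stood at 6.77, 13.6 and 13.7 at day 7.

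The others of this set had few reads. *Otop1*, a proton channel, went from 8.02, 4.24 and 8.72 to 117, 90.1 and 45.1 in ML-792 and from 4.09, 2.68 and 5.33 to 0, 2.09 and 0 in DMSO. *Lipg*, endothelial lipase, went from 4.45, 8.48 and 4.02 to 91.7, 95.2 and 42.3 in ML-792 and from 9.82, 11.6 and 0 to 0, 0 and 0 in DMSO. *Fbp2*, fructose bisphosphatase, stood at 17.9, 20.6 and 26.0 in ML-792 and at 0, 0 and 0 in DMSO at day 7. *Plxnb1*, a semaphorin receptor, went from 73.1, 33.2 and 51.0 to 14.3, 3.86 and 4.10 in ML-792 and from 63.0, 30.4 and 56.8 to 0, 0 and 0 in DMSO. *Rgag4* went from 99.8, 70.7 and 57.7 to 29.8, 21.9 and 34.1 in ML-792, which did not pass (adjusted p = 0.057 by edgeR), and from 81.0, 76.0 and 93.2 to 0, 0 and 2.28 in DMSO. All 5 genes lay higher in ML-792 at day 7 on few reads, with most DMSO libraries at 0.

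The genes whose change was lowest relative to DMSO were *Mlana*, *Zcchc5*, *Fam69c*, *Sctr*, *Paqr5*, *Mreg*, *Ghrh* and *Plekhs1*. *Ghrh*, which encodes growth hormone-releasing hormone (3′UTR at chr2:157329496-157329596, minus strand, mm10), rose in DMSO from 1.64, 1.79 and 0.888 to 1333, 1519.6 and 1928. In ML-792 it went from 1.78, 0 and 4.69 to 32.2, 15.4 and 45.1, a rise that also passed (3.72 ± 0.65). The difference was -6.27 ± 1.23 (adjusted p = 0.00484 by edgeR). *Mreg*, melanoregulin, stood at 11.9, 0 and 8.19 in ML-792 and at 227, 213 and 378 in DMSO at day 7 (difference -6.35 ± 1.55, adjusted p = 0.0275 by edgeR). *Mlana*, a protein of pigment granules, went from 20.5, 44.5 and 52.96 to 0 in ML-792, at least 32.1-fold lower, and stood at 67.9, 41.1 and 59.5 and then 65.4, 131 and 65.1 in DMSO (adjusted p of the difference = 7.12e-04 by edgeR).

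The other 5 had at most 10.9 normalized counts in any ML-792 library at either day and rose in DMSO. At day 7 *Sctr*, the secretin receptor, stood at 9.53, 5.15 and 10.9 in ML-792 and 63.2, 53.2 and 70.8 in DMSO, *Fam69c* at 1.19, 3.86 and 10.9 and 90.3, 84.5 and 97.1, and *Paqr5*, a membrane progestin receptor, at 4.77, 7.72 and 1.37 and 30.5, 53.2 and 69.7. *Plekhs1* stood at 7.15, 7.72 and 6.83 and 71.1, 44.8 and 66.2, and *Zcchc5* at 0, 0 and 1.37 and 71.1, 31.3 and 56.0. No ML-792 library reached a DMSO library of day 7 in these 5 genes.

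Metallothioneins, which bind zinc and copper and are induced by metals and glucocorticoids, rose less in ML-792 than in DMSO. *Mt2* went from 8775, 8277 and 9467 to 20775, 16235 and 22567 in ML-792 and from 9977, 7740.2 and 9360.5 to 105240.0, 102249 and 109823 in DMSO, with changes of 1.17 ± 0.16 and 3.55 ± 0.17. The difference was -2.38 ± 0.23 (adjusted p = 7.51e-07 by edgeR). *Mt1* went from 31452, 30999 and 33884 to 58099.6, 40105 and 56287 in ML-792 and reached 177271, 229327 and 188054 in DMSO (difference -2.08 ± 0.31, adjusted p = 2.59e-04 by edgeR). The rise of *Mt1* in ML-792 passed with the block only (adjusted p = 0.0121, and 5.04e-04 with it, by edgeR). *Rgs2*, a regulator of G protein signalling, rose by 1.32 ± 0.17 in ML-792 and 2.69 ± 0.18 in DMSO (difference -1.37 ± 0.23, adjusted p = 0.00119 by edgeR).

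Some matrix and surface genes stayed higher at day 7 in ML-792. Of 22 matrix proteins other than collagens, 3 had a higher change in ML-792 than in DMSO and 1 had a lower one. Of 16 collagen genes, 1 had a higher and 1 a lower change. With the replicate block 5 matrix proteins were higher and 1 was lower. Among the collagens 5 were then higher, *Col1a1*, *Col1a2* and *Col3a1* among them, and 2 were lower. *Postn*, periostin, went from 16947, 16314 and 15098 to 2724, 3586 and 3606 in ML-792 and to 1540.3, 991 and 1308 in DMSO (difference 1.67 ± 0.26, adjusted p = 4.38e-04 by edgeR). *Cd44*, the hyaluronan receptor, reached 539.7, 508 and 574 in ML-792 and 262, 232 and 349.5 in DMSO (difference 1.01 ± 0.19, adjusted p = 0.00372 by edgeR), and *Thbs1*, thrombospondin, 423, 503 and 548 in ML-792 and 214, 159 and 316 in DMSO (difference 1.21 ± 0.28, adjusted p = 0.0202 by edgeR). *Col3a1* had a difference of 1.00 ± 0.28 (adjusted p = 0.0631 by edgeR). *Sdc1*, a heparan sulphate proteoglycan, went the other way and fell further in ML-792, to 571, 449 and 608 against 803, 747 and 818 in DMSO (difference -0.64 ± 0.19, adjusted p = 0.0805 by edgeR).

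Labelled reads fell as a share of all reads. They were 2.83% ± 0.206 (SD, n = 3) of the total reads in ML-792 at day −2 and 0.837% ± 0.0310 at day 7, so that the groups did not overlap. The difference was -1.99 percentage points, with a two-sided exact permutation p of 0.1, the smallest that 3 libraries against 3 allow. In DMSO the share fell from 3.17% ± 0.485 to 1.03% ± 0.0869, by -2.15 points. Whether the uptake of 4-thiouridine differed between pre-adipocytes and adipocytes was not tested.

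Scaled by the total reads, 6434 genes could be tested in labelled reads, of which 123 rose (1.91%) and 2233 fell (34.7%) in ML-792, with a median of -1.71. In DMSO 140 rose (2.18%) and 1994 fell (31%), with a median of -1.47. The split depends on this scaling: scaled by the labelled reads themselves, 435 genes rose and 366 fell in ML-792 of 4871 tested, so that 54.3% of the calls were higher in place of 5.22%, with a median of -0.03. Labelled changes below are therefore to be read against the median of -1.71. Without replicate A the counts were 74 and 964, and without replicate C 87 and 1313. Of the 6434 genes, 121 rose in both total and labelled reads, 1119 fell in both and none rose in labelled reads while it fell in total reads. The 2 changes had a Pearson's r of 0.81 across genes, whose labelled reads are part of their total reads. The median labelled change was -0.18 among genes that rose in total reads, -1.67 among those that did not pass and -3.04 among those that fell.

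**Figure D4:**
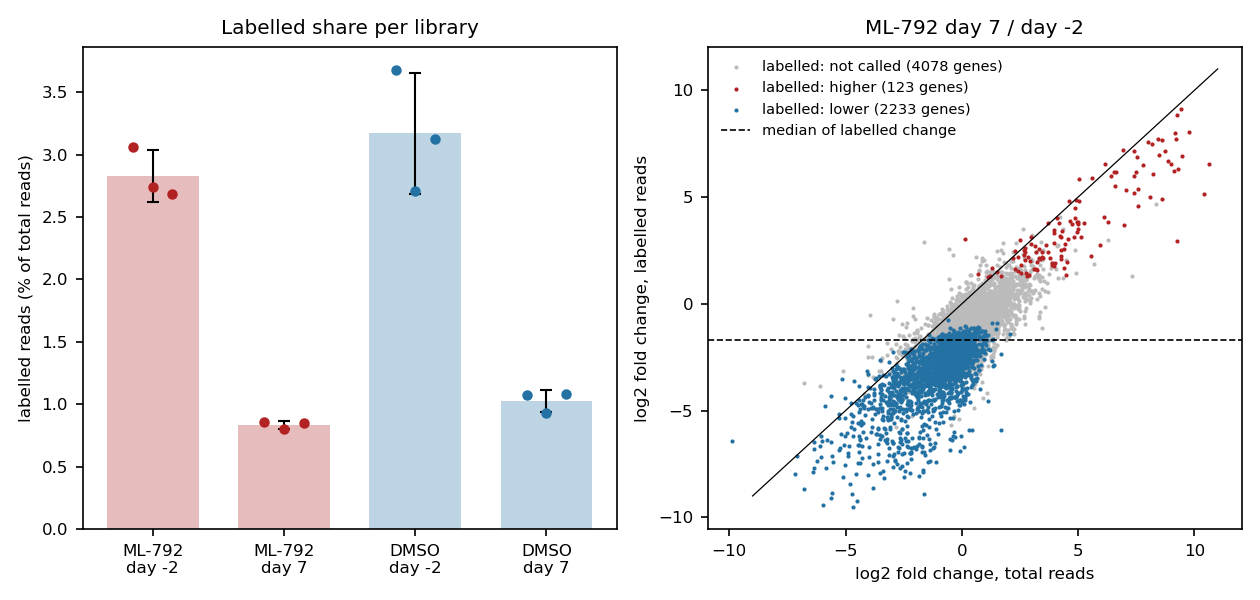
Left, labelled reads as percent of total reads in each library (points, n = 3 per group) with the mean (bar) and SD (line), and right, log2 fold change of labelled reads (y axis) against that of total reads (x axis) in ML-792, 1 point per gene (6434 genes), with the diagonal and the median labelled change of -1.71 (dashed). The ML-792 shares lie between 2.68% and 3.06% at day −2 and between 0.802% and 0.860% at day 7, and most genes lie below the diagonal.

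The 10 genes with the highest changes of labelled reads, by rank, were *Adipoq*, *Aldh3b2*, *Cfd*, *Cidec*, *G0s2*, *Gpd1*, *Retn*, *Syn2*, *Thrsp* and *Orm3*. *Adipoq* went from 0.891, 0 and 2.01 normalized labelled counts to 684, 565 and 604, a change of 9.11 ± 0.51 (adjusted p = 1.67e-22 by edgeR). *Cidec* went from 1.78, 0.707 and 1.34 to 365, 323 and 349.6 and *G0s2*, an inhibitor of ATGL, from 0.891, 0.707 and 1.34 to 293, 193 and 219. *Aldh3b2*, an aldehyde dehydrogenase, had no labelled read at day −2 and was at least 78.3-fold higher. *Retn*, *Syn2* and *Thrsp* were at least 34.3-, 32.6- and 30.3-fold higher. All 13 tested adipocyte markers rose in labelled reads under either scaling, *Fabp4* from 15.1, 13.4 and 16.1 to 819.7, 1157 and 1076 and *Pparg* from 27.6, 8.48 and 20.8 to 176, 103 and 183. *Lpl* rose by 1.91 ± 0.24 and *Scd1* by 3.49 ± 0.37.

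Groups whose total reads rose less did not all rise in labelled reads. Of 28 tested subunits of oxidative phosphorylation, 1 rose with total-read scaling and 18 with labelled-read scaling, and none fell under either. With total-read scaling 3 of 13 genes of fatty acid oxidation rose and 1 fell, and with labelled-read scaling 8 of 13 rose and none fell. Branched-chain amino acid breakdown had 3 of 11 genes higher and then 6 of 10, and triglyceride synthesis 5 of 9 and then 6 of 9, with none lower under either scaling. Of 13 genes of lipogenesis 3 rose and 4 fell with total-read scaling, against 4 and 1 of 11 with labelled-read scaling. Of 11 genes of lipid droplets 5 rose and 2 fell, against 6 and 0. Of 9 genes of fatty acid uptake 4 rose and 1 fell, against 5 and 0. Of 11 genes of insulin response 2 rose and 2 fell, against 4 and 1 of 8. Under either scaling 5 of 6 genes of lipolysis rose, and of 10 adipokines 7 rose with total-read and 9 with labelled-read scaling. Of 17 adipogenic factors 4 rose and 7 fell with total-read scaling, while with labelled-read scaling 4 rose and none fell. In *Fasn* labelled reads changed by -0.25 ± 0.43 and did not pass.

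Of the 6434 genes, 61 rose in total reads and fell in labelled reads. A further 1108 rose in total reads and did not pass in labelled reads, and 121 rose in both. Over all genes tested, 34.7% fell in labelled reads. *Cav1* rose in total reads by 2.08 ± 0.18 while its labelled reads went from 489, 446 and 457 to 126, 184 and 206, and its labelled share from 8.51% ± 1.44 to 0.724% ± 0.0907 (SD, n = 3). *Klf9* went from 1214, 675 and 839 to 497, 342 and 606 in labelled reads and *Cebpd* from 381, 356 and 359 to 104, 185 and 186. Scaled by the labelled reads, the changes were 0.10, 0.62 and 0.32 for *Cav1*, *Klf9* and *Cebpd*, each with the opposite sign to the main value.

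The labelled reads that fell most were those of *Hic1*, *Myl9*, *Dpysl3*, *Phldb2*, *Filip1l*, *Edn1*, *Cxcl5*, *Eya1*, *Inhba* and *Adamts6*. *Hic1*, a transcriptional repressor, went from 123, 58.7 and 94.5 to 0, at least 70.4-fold lower, and *Myl9* from 82.0, 90.5 and 83.8 to 0, at least 67.1-fold. *Phldb2*, *Dpysl3*, *Edn1*, *Eya1*, *Inhba* and *Adamts6* were at least 53.3-, 60.1-, 45.1-, 37.7-, 33.8- and 28.0-fold lower. *Cxcl5* went from 225, 185 and 259 to 0, 1.29 and 0 and *Filip1l* from 311, 236 and 235 to 1.19, 0 and 0. All 18 tested actin and SRF/YAP genes fell, as did 17 of 18 immediate early genes, 18 of 20 matrix genes, 8 of 8 chemokines, 9 of 11 interferon-stimulated genes and 10 of 11 pre-adipocyte markers. Scaled by the labelled reads, 15 of 16 actin genes fell and 1, *Vcl*, rose (0.78), and 1 matrix gene rose. *Vcl*, also 1 of the 18 above, had a labelled share of at least 27.2% in every library, as described below. Whether its labelled reads stand for new RNA was not tested. Under that scaling a fall was called in 15 of 18 immediate early genes, 10 of 19 matrix genes, 6 of 6 chemokines, 5 of 7 interferon-stimulated genes and 7 of 11 pre-adipocyte markers. *Fos* went from 831, 861 and 679.8 to 22.6, 19.3 and 36.9, *Egr1* from 4186, 3069 and 2770.2 to 90.5, 97.8 and 141 and *Fn1* from 558, 636 and 541 to 8.34, 12.9 and 5.46. *Col3a1* went from 12716, 6158 and 10912 to 3779, 1688 and 4651 and did not pass without the replicate block (-1.56 ± 0.50, adjusted p = 0.0163, and 3.46e-13 with it, by edgeR). Of 14 mitosis genes 7 fell, of 12 replication genes 5, of 14 cholesterol genes 11, of 16 SUMO pathway genes 10, of 11 p53 targets 8, of 11 ATF4 genes 8, of 15 collagens 6, of 14 anti-adipogenic factors 12, and none of these rose. Scaled by the labelled reads, 1 of 12 mitosis genes, none of 10 replication genes, 2 of 12 cholesterol genes, none of 11 SUMO pathway genes and 3 of 12 anti-adipogenic factors fell and none rose. Under that scaling 4 of 13 collagens rose and 3 fell, 2 of 10 ATF4 genes rose and 2 fell, and 1 of 9 p53 targets rose and 2 fell.

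Of 6811 genes with at least 100 reads in each of the 24 libraries of both treatments and all days, 2 had 20% or more labelled reads in every library. They were *B230118H07Rik* (30.7% to 51.7%) and *Vcl* (27.2% to 38.1%). In ML-792 the share of *Vcl* was 34.9% ± 0.843 at day −2 and 31.7% ± 2.74 at day 7, far above that of all reads at both days, and what raised it was not tested.

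In labelled reads no gene had a higher change in ML-792 than in DMSO (0% of the genes tested by edgeR, and 108 genes at an unadjusted p under 0.05) and 5 had a lower one (0.0777%), *Rgs2*, *Mad2l2*, *Mt2*, *Mt1* and *5730408K05Rik*. DESeq2 called 2 and 18, and edgeR with the replicate block 5 and 20. Without replicate A the counts were 0 and 0, without B 1 and 4 and without C 0 and 1. *Mt2* had labelled counts of 508, 433 and 552 at day −2 and 396, 277 and 422 at day 7 in ML-792, and of 715, 385 and 701 and 1397, 1144 and 1529 in DMSO (difference -1.62 ± 0.38, adjusted p = 0.0693 by edgeR). *Mt1* and *Rgs2* had differences of -1.61 ± 0.36 and -1.83 ± 0.40 (adjusted p = 0.0376 and 0.035 by edgeR). These 3 genes also had a lower change in total reads. *5730408K05Rik* went the other way in total reads, with a difference of 1.15 ± 0.26 (adjusted p = 0.0136 by edgeR) against -5.14 ± 0.92 in labelled reads. Its labelled counts in ML-792 were 25.8, 43.8 and 197 at day −2 and 13.1, 21.9 and 17.8 at day 7, and in DMSO 17.2, 33.1 and 14.2 and 194, 230.5 and 25.1. *Mad2l2*, of DNA repair, had few labelled reads, 14.3, 2.12 and 2.01 at day −2 and 0, 3.86 and 0 at day 7 in ML-792, and a difference of -0.53 ± 0.32 in total reads that did not pass. For the genes that differed in total reads, labelled reads of *Scd1* had a difference of -1.85 ± 0.50 (adjusted p = 0.222 by edgeR), of *Ccl2* 2.41 ± 0.68 (0.298) and of *Postn* 1.26 ± 0.55 (0.809), none of which passed without the replicate block. With it the adjusted p was 0.0467 for *Scd1* and 0.0838 for *Ccl2* by edgeR.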

How the data were processed

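SLAMseq libraries of 3T3-L1 cells in ML-792 or DMSO (8 conditions, 3 biological replicates, 24 libraries) were analysed from the deposited counts. The authors demultiplexed single reads with bcl2fastq (version 2.17.1.14 per the labels), mapped and filtered them with SlamDunk on mm10 and counted all reads and reads with a T to C conversion on RefSeq 3′UTRs, and the deposited tables hold these raw counts for 91830 entries of 26995 gene symbols. The tables hold 6 further columns that match no sample analysed here, which were not used. Counts were fitted with edgeR 4.0.16 (robust quasi-likelihood, TMM factors of total reads over 24 libraries, filterByExpr with a minimum count of 10 and a total of 15, prior count 2) in R 4.3.3 with limma 3.58.1. Labelled counts used the library sizes and factors of total reads. A gene's change was the contrast of day 7 against day −2 within a treatment, and its difference the contrast of the 2 changes. Adjusted p under 0.01 called changes and under 0.1 called differences. DESeq2 1.42.0 served as an alternative. The fit was tested on simulated counts with few changed entries and no effect of the replicate letter, unlike the data. That test thus cannot show how well calls that depend on the replicate block hold.

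Samples were grouped by their titles. The replicate letters of the titles were taken as pairing the libraries of total reads: residuals of day −2 and day 7 correlated at 0.187 for A, 0.449 for B and 0.19 for C, against a mean of -0.136 between different letters. Residuals were centred within each group of 3, so that this mean follows from the same-letter values and is no independent comparison. The main fits held no term for the letter, and fits with the letter as a block served as an alternative. A difference between the treatments that is not mentioned above may pass with the block, as that of *Cd36* did (1.16, adjusted p = 0.0185 by edgeR). No source names a shared passage or day for a letter, and p-values measure the spread between these replicates. The genes named are a fixed set and, for total and for labelled reads each, called genes at both ends of the ranking, 10 an end by change (if the libraries of the 2 days did not overlap) and 8 an end by difference, and in each list the 3 members with the most reads and those that changed most. By rank, predicted genes (Gm, LOC or Rik symbols) and genes whose higher group had a mean under 20 (total) or 10 (labelled) normalized counts were skipped. Members of the 32 lists (480 entries) and these genes were chosen with earlier results of these data known, and other genes after their values were seen. A listed or named gene that failed the filter on low counts was not tested (35 genes), and some members of the lists are counted but not reported by name here. Where a group held no read, 3 reads over the group were taken as the floor, and intervals (95%, exact) and floors cover counting error only, since reads and not molecules were counted. Depth limits the labelled counts most, with 115709 reads in the smallest library.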

Additional observations from a re-analysis of the deposited data

Results flagged for a closer look

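The results below stood out because the change from day −2 to day 7 in ML-792 differed from that in DMSO by a test of the difference itself (edgeR, adjusted p under 0.1). In total reads these were 281 genes with a higher and 258 with a lower change in ML-792, and in labelled reads 5 genes with a lower one.

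Among genes with a higher change, *Gsta3* had a log2 difference of 5.09, *Ccl2* of 2.34, *Postn* of 1.67, *Thbs1* of 1.21, *Cd44* of 1.01, *Col3a1* of 1.00 and *Cxcl12* of 0.86. For genes at or near 0 reads in a group only the adjusted p of the difference (edgeR) is given. It was 3.90e-04 for *Far2*, 0.0029 for *Lipg*, 0.00401 for *Otop1*, 0.0117 for *Rgag4*, 0.0508 for *Rdh9*, 0.0779 for *Plxnb1* and 0.0814 for *Fbp2*.

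Among genes with a lower change, *Mreg* had a log2 difference of -6.35, *Ghrh* of -6.27, *Slc2a4* of -1.92, *Scd1* of -1.47 and *Sdc1* of -0.64. The adjusted p (edgeR) was 7.12e-04 for *Mlana*, 0.00897 for *Paqr5*, 0.0107 for *Plekhs1*, 0.0107 for *Zcchc5*, 0.0456 for *Sctr* and 0.069 for *Fam69c*. In *Rgs2*, *Mt2* and *Mt1* the difference passed in both kinds of reads, at -1.37, -2.38 and -2.08 in total reads and at -1.83, -1.62 and -1.61 in labelled reads. For *Mad2l2* the adjusted p in labelled reads was 0.0168 by edgeR.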

How the results depend on the processing

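The counts of genes with a changed total read level stayed within 1.5 times of 2711 and 2745 under every alternative but leaving out a replicate, which gave 1549 to 2919 higher and 1575 to 2936 lower. For the difference from DMSO, 281 and 258 genes became 655 and 831 with the replicate block, 96 and 75 at an adjusted p under 0.01, 460 higher with DESeq2, and 34 to 400 and 34 to 329 without a replicate. In labelled reads 123 and 2233 became 435 and 366 when labelled reads were scaled by labelled reads, and 74 to 109 and 964 to 1821 without a replicate. Their difference from DMSO, 0 and 5 genes, became 5 and 20 with the replicate block, 2 and 18 with DESeq2, 2 and 9 at a filter of 10 reads, 1 higher with labelled-read scaling, none lower at an adjusted p under 0.01, and 0 to 1 and 0 to 4 without a replicate. With labelled reads scaled by labelled reads, the labelled log2 changes of 11 named genes that were called under at least 1 of the 2 scalings turned positive: *Mt2* 1.07, *Atp5a1* 1.26, *Vcl* 0.78, *Klf9* 0.62, *Rgs2* 0.60, *Mt1* 0.43, *Sparc* 0.38, *Cdkn1a* 0.38, *Cebpd* 0.32, *Sumo3* 0.32 and *Cav1* 0.10, by construction of a scaling that takes out the fall of the labelled share. Of these genes, *Vcl* had a high labelled share in every library. Genes called under neither scaling, such as *Fasn* (1.30 with labelled-read scaling), could also turn positive and are not in this count. The fall of the labelled share of all reads, -1.99 points, ranged from -2.07 to -1.88 without a replicate. Of the named genes' values over the alternatives, 2092 total changes stayed the same, 39 lost and 44 gained the call. In labelled reads 1569 changes stayed the same and 104 lost the call. Staying the same meant a call in the same direction. For a value called in neither fit it meant a shift of less than the SE of the main value, whatever its sign. With the replicate block, 31 of the named genes' total differences from DMSO and 10 of their total changes gained the call and none lost it. In labelled reads, where same-letter residuals of day −2 and day 7 correlated at 0.0705, 0.165 and 0.0286, 9 differences and 6 changes gained it. Other causes were not tested.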
